A study of Mus musculus with 6 samples.

Results

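The 10 genes described here are the adipokine genes Adipoq, Lep, Cfd and Retn, the lipid droplet protein genes Plin1, Cidec and Cidea, and the lipogenic genes Thrsp, Fasn and Scd1. They were taken by gene name from a table of 43346 genes, and all 10 were found once and passed the low-count filter. Polyadenylated RNA was sequenced from gastrocnemius muscle of male mice aged 6 months, homozygous for a Vdr allele with loxP sites around exon 3 and carrying the Tg(ACTA1-cre/Esr1*)2Kesr transgene. The 3 knockout libraries came from mice given tamoxifen, 100 mg/kg in 10% ethanol in corn oil, on 5 days. The 3 vehicle libraries came from mice with the same alleles given 10% ethanol in corn oil, also on 5 days. The volume injected was 75 microliters in both groups. Both groups ate a diet whose calcium content was 0.81%, with vitamin D3 at 3.4 IU in every gram. An interval of 10 days before a strength test was likewise shared by both groups. The ACTA1 promoter drives the tamoxifen-dependent Cre in skeletal muscle fibres, so the fat cells within a muscle are not its target cells. Tamoxifen and deletion came together in the knockout group, so their effects cannot be told apart, and tamoxifen-treated mice without Cre were not analysed here. The labels do not state that each sample is 1 mouse, so p-values measure only the spread between these samples.

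White fat cells store triglyceride in 1 large droplet coated by perilipin 1 and fused by CIDE proteins, and secrete adipokines into the blood. De novo lipogenesis builds fatty acids from acetyl-CoA by fatty acid synthase and desaturates them by stearoyl-CoA desaturase. Fat cells and muscle fibres can both carry out parts of this programme, whereas adipokine transcripts in muscle are usually taken to mark fat cells among the fibres. In these bulk samples fewer cells of a type and less RNA per cell cannot be told apart.

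Library totals ran from 30486874 to 39909535 reads. Knockout replicate 2 stood apart: its 10 most abundant genes held 15.1% of its reads, against 20.8% to 25.2% in the other 5 libraries, and it had the highest sum of slow-twitch fibre markers. The fibre genes Acta1, Ckm, Myh4, Tnnt3, Mylpf, Tnni2, Pvalb and Mb summed to between 103159 and 198964 CPM (read counts scaled to a common library total) in knockout libraries and between 171660 and 184529 CPM in vehicle libraries, so fibre genes were abundant in all 6. Vdr, the targeted gene, had 52, 27 and 40 reads in knockout libraries and 46, 48 and 61 in vehicle libraries, which overlap. A gene-level count does not show the loss of 1 exon, so these reads check the labels only in part.

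The comparison of knockout with vehicle asks how the muscle transcriptome differs after Vdr deletion is induced in adult fibres. All 10 genes were estimated higher in knockout muscle. Their median log2 fold change was 1.12 (0.62 without knockout replicate 2), beside 0.02 over the 15583 genes tested, of which 52.9% were estimated higher. None passed: 0 of 10 had an adjusted p below 0.05 in edgeR's quasi-likelihood test, in DESeq2 or in limma-voom, where edgeR called 0% of all genes and DESeq2 0.699%. At an unadjusted p below 0.05, 7 of the 10 were higher in knockout, beside 4.02% of all genes in that direction and 7.44% in either. Leaving out knockout replicate 1 gave a count of 2, and leaving out either knockout replicate 2 or vehicle replicate 3 gave 1. All 10 were measured in the same 6 libraries, so their number is not a number of independent observations. The 10 genes were also chosen with earlier results of these data known, so these counts describe the set and do not test it.

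**Figure D1:**
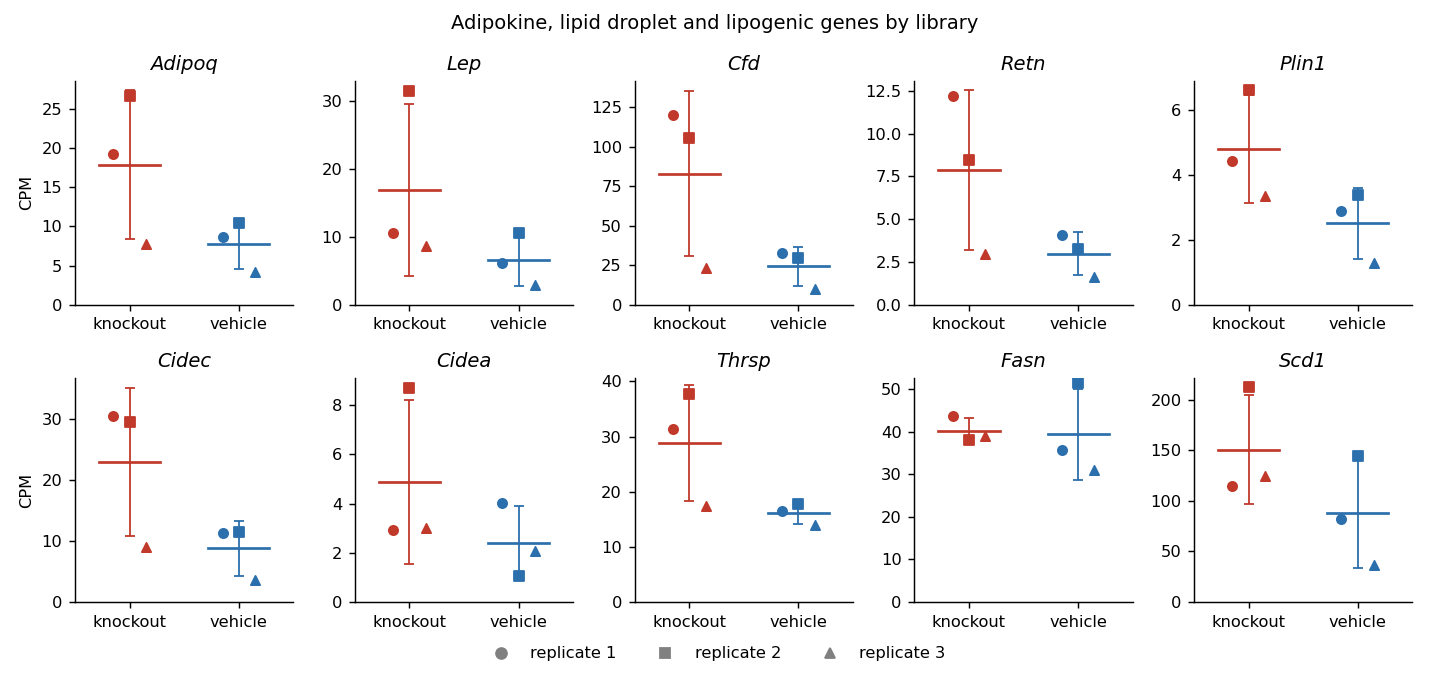
TMM-scaled CPM of each gene in every library, knockout left and vehicle right in each panel. Symbols mark replicates, the horizontal line is the group mean and the bar its SD (n = 3). Knockout replicate 2 or 1 is highest in 9 of the 10 genes and vehicle replicate 3 lowest in 9, with Fasn and Cidea the exceptions.

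Promoter windows of 300 bases, from 250 before to 50 after the annotated start, were in the RefSeq table (GRCm38.p6, the same assembly as mm10) for 8 of the 10 genes. Those of Adipoq, Lep, Thrsp and Fasn are printed because they set 2 adipokine genes whose levels varied widely beside 2 lipogenic genes whose levels did not vary alike. Sequences run 5′ to 3′ on the gene's strand, and capitals mark matches on either strand to CCAAT, the box bound by NF-Y, or to TTGCNNAA, part of the palindrome bound by C/EBP factors.
Adipoq, chr16:23146286-23146585, plus strand: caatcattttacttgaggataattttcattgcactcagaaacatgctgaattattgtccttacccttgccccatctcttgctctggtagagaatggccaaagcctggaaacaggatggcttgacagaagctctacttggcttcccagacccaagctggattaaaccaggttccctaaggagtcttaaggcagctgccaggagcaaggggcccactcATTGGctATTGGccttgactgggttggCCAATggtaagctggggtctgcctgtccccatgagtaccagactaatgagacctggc
Lep, chr6:29059971-29060270, plus strand: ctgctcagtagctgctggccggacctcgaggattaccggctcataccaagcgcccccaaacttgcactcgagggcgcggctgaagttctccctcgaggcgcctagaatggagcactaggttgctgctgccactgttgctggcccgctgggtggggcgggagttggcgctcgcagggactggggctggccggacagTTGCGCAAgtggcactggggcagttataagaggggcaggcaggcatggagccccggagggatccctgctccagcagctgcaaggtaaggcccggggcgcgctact
Thrsp, chr7:97417501-97417800, minus strand: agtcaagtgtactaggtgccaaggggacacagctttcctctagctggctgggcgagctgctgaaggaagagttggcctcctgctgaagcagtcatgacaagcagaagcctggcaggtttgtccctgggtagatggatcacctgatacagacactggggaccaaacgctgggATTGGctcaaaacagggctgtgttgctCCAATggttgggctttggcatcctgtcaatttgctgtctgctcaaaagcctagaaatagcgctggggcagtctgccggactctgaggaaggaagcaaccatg
Fasn, chr11:120824498-120824797, minus strand: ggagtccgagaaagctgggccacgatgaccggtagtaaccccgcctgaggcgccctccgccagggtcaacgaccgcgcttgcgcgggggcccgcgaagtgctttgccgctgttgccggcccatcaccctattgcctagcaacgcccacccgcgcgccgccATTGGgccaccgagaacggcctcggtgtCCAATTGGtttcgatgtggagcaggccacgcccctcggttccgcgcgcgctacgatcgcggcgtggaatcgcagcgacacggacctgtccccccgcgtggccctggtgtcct
CCAAT occurred 3 times in the Adipoq window, 2 times in the Thrsp window and 3 times in the Fasn window, where 2 of the matches overlap. It was in 3 of the 8 windows (first annotated start of each gene), beside 37.4% of all 32851 windows in the table. The Lep window held TTGCGCAA, which matches TTGCNNAA on both strands at position -55 from the start. TTGCNNAA was also in the Plin1 window, so in 2 of 8, beside 10.8% of all windows. The TATA box TATAAA, the E-box CACGTG, the nuclear receptor half-site AGGTCA and the sterol element TCACNCCAC were in 0 of the 8, beside 13.6%, 7.15%, 16.3% and 1.24% of all windows. CpG pairs numbered 0 in Adipoq, 2 each in Cfd, Retn and Plin1, 4 in Thrsp, 6 in Cidec, 19 in Lep and 39 in Fasn, beside a median of 7. These matches are descriptions of the letters only.

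Among the adipokines, Adipoq encodes adiponectin, the abundant fat cell hormone that acts on muscle and liver through Adipor1 and Adipor2. Adipoq (ENSMUSG00000022878, chromosome 16, 23146536 to 23158028, mm10) had 19.2, 26.7 and 7.77 CPM in knockout libraries and 8.58, 10.4 and 4.17 CPM in vehicle libraries. Knockout replicates 1 and 2 lay above all vehicle libraries, and knockout replicate 3 lay below vehicle replicates 1 and 2, so the groups overlapped. The estimated difference, knockout minus vehicle in log2 units, was 1.21 with an SE of 0.47 and a 95% interval from 0.12 to 2.30 (edgeR, adjusted p = 0.645), and it was 0.80 without knockout replicate 2.

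Lep encodes leptin, the fat cell hormone that signals energy stores to the brain. Lep (ENSMUSG00000059201, chromosome 6, 29060220 to 29073877) had 10.6, 31.6 and 8.63 CPM in knockout libraries and 6.10, 10.6 and 2.97 CPM in vehicle libraries. Knockout replicate 2 alone was far above the rest, and knockout replicate 1 and vehicle replicate 2 were nearly level. The estimated difference, knockout minus vehicle in log2 units, was 1.37 with an SE of 0.59 and a 95% interval from 0.02 to 2.72 (edgeR, adjusted p = 0.667), and it was 0.56 without knockout replicate 2.

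Cfd encodes adipsin, the complement factor D that fat cells secrete. Cfd (ENSMUSG00000061780, chromosome 10, 79890853 to 79892656) had 120, 106 and 23.2 CPM in knockout libraries and 33.0, 29.4 and 10.1 CPM in vehicle libraries. Of the 10 genes it had the widest span, 11.8-fold from highest to lowest library, and the largest estimate, a log2 fold change of 1.78 (SE 0.63, 95% interval 0.31 to 3.25; edgeR adjusted p = 0.643). Knockout replicates 1 and 2 were both more than 3 times vehicle replicate 1, whereas knockout replicate 3 was below vehicle replicates 1 and 2.

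Retn encodes resistin, which in mice is secreted by fat cells. Retn (ENSMUSG00000012705, chromosome 8, 3655770 to 3660110) had 12.2, 8.45 and 2.96 CPM in knockout libraries and 4.09, 3.26 and 1.62 CPM in vehicle libraries. The order of libraries was the same as for Cfd, with knockout replicate 1 highest. The estimated difference, knockout minus vehicle in log2 units, was 1.40 with an SE of 0.51 and a 95% interval from 0.24 to 2.56 (edgeR, adjusted p = 0.643).

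Among the droplet proteins, Plin1 encodes perilipin 1, which coats the fat cell droplet and holds back lipolysis until it is phosphorylated. Plin1 (ENSMUSG00000030546, chromosome 7, 79721164 to 79732776) had 4.42, 6.63 and 3.37 CPM in knockout libraries and 2.88, 3.37 and 1.28 CPM in vehicle libraries. Knockout replicate 3 and vehicle replicate 2 were level, and the estimated difference, knockout minus vehicle in log2 units, was 0.94 with an SE of 0.40 and a 95% interval from 0.05 to 1.83 (edgeR, adjusted p = 0.664). Cidec, whose product (also called FSP27) enlarges droplets by moving lipid between them, had 30.4, 29.4 and 8.95 CPM in knockout libraries and 11.3, 11.5 and 3.55 CPM in vehicle libraries. Cidec (ENSMUSG00000030278, chromosome 6, 113424634 to 113435760) had a log2 fold change of 1.39 (SE 0.55, 95% interval 0.13 to 2.65; edgeR adjusted p = 0.646). As in Cfd, knockout replicates 1 and 2 stood together above the rest.

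Cidea, the related droplet protein best known from brown fat, followed another pattern. Cidea (ENSMUSG00000024526, chromosome 18, 67343564 to 67367794) had 2.91, 8.71 and 3.02 CPM in knockout libraries and 4.03, 1.04 and 2.09 CPM in vehicle libraries. Knockout replicate 2 was highest, but vehicle replicate 1 came next and vehicle replicate 2, not 3, was lowest. The estimated difference, knockout minus vehicle in log2 units, was 1.04 with an SE of 0.57 and a 95% interval from -0.25 to 2.32 (edgeR, adjusted p = 0.717). It was 0.32 without knockout replicate 2, 0.67 without vehicle replicate 2 and 1.63 without vehicle replicate 1. An annotated transcript on the opposite strand overlaps Cidea, and although the library kit keeps strand, the strand setting used for counting is not stated, so its reads are uncertain.

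Among the lipogenic genes, Thrsp encodes Spot 14, a nuclear protein that promotes fatty acid synthesis and is induced by thyroid hormone and carbohydrate. Thrsp (ENSMUSG00000035686, chromosome 7, 97412938 to 97417730) had 31.4, 37.8 and 17.3 CPM in knockout libraries and 16.5, 17.7 and 14.01 CPM in vehicle libraries. The vehicle libraries lay close together, and only knockout replicate 3 fell within their range. Its unadjusted p was the smallest of the 10, at rank 270 of all genes, with a log2 fold change of 0.84 (SE 0.27, 95% interval 0.25 to 1.44; edgeR adjusted p = 0.621).

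Scd1 encodes stearoyl-CoA desaturase 1, which makes monounsaturated fatty acids. Scd1 (ENSMUSG00000037071, chromosome 19, 44394451 to 44407709) had 115, 212 and 124 CPM in knockout libraries and 81.6, 144 and 36.9 CPM in vehicle libraries. Vehicle replicate 2 lay above knockout replicates 1 and 3, and vehicle replicate 3 was far below the rest. The estimated difference, knockout minus vehicle in log2 units, was 0.78 with an SE of 0.46 and a 95% interval from -0.28 to 1.84 (edgeR, adjusted p = 0.738). It was 0.45 when knockout replicate 2 was left out and 0.41 when vehicle replicate 3 was, but 1.34 when vehicle replicate 2 was. Reads of the close paralogs Scd1, Scd2, Scd3 and Scd4 may have been split between them.

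Fasn, which encodes the fatty acid synthase itself, had the estimate nearest to 0. Fasn (ENSMUSG00000025153, chromosome 11, 120805940 to 120824178) had 43.8, 38.2 and 39.1 CPM in knockout libraries and 35.6, 51.5 and 31.0 CPM in vehicle libraries. The 3 knockout libraries lay inside the range of the vehicle libraries. The estimated difference, knockout minus vehicle in log2 units, was 0.03 with an SE of 0.20 and a 95% interval from -0.42 to 0.49 (edgeR, adjusted p = 0.981), and its sign turned when knockout replicate 1, vehicle replicate 1 or vehicle replicate 3 was left out. The span from highest to lowest library was 1.66-fold, the smallest of the 10 genes.

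**Figure D2:**
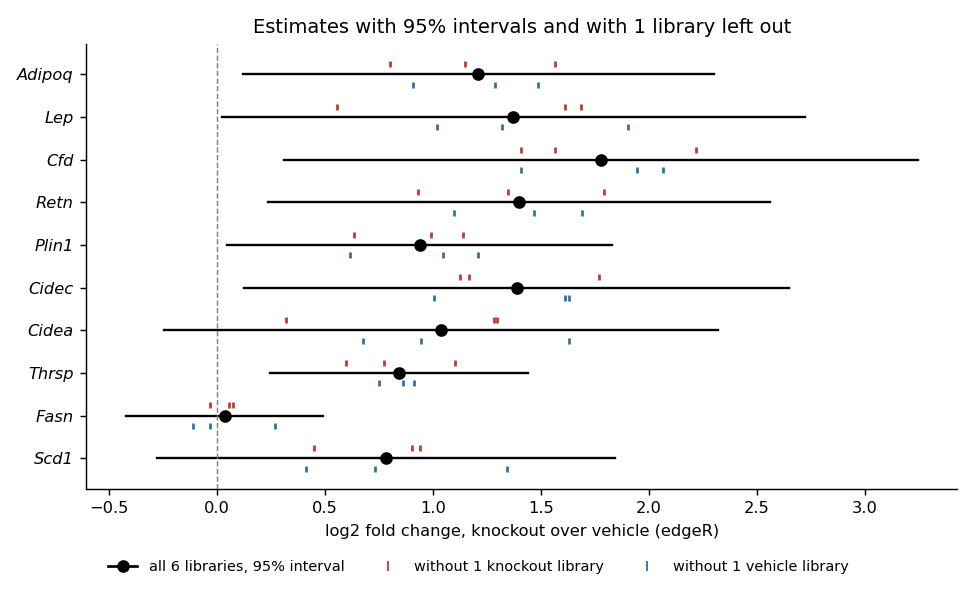
Log2 fold change of knockout over vehicle for each gene from edgeR with all 6 libraries (dot) and its 95% interval (line). Ticks above each line leave out 1 knockout library and ticks below leave out 1 vehicle library. The intervals of Cidea, Fasn and Scd1 include 0, and Fasn sits at 0.03.

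On TMM-scaled CPM no gene had all knockout above all vehicle libraries, 0 of 10 beside 5.83% of all genes tested. On the deposited FPKM (reads scaled by gene length and library total only), Plin1 and Thrsp did, 2 of 10 beside 6.43% of all genes tested. For these genes the boundary between the groups therefore moved with the scaling. On TMM-scaled CPM, all knockout lay below all vehicle libraries in 0 of the 10 genes and in 1009 of the 15583 genes tested.

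Levels can be compared between genes only per length. By the deposited FPKM, Cfd was highest at 91.5 ± 56.4 over knockout libraries and 25.4 ± 12.9 over vehicle libraries (SD over 3 each). Scd1 followed at 32.9 ± 14.9 FPKM in knockout and 17.6 ± 10.96 in vehicle libraries, then Thrsp at 23.4 ± 9.60 and 12.2 ± 1.54 FPKM in the same order of groups. Adipoq had 13.5 ± 7.97 FPKM in knockout and 5.43 ± 2.30 in vehicle libraries, close to Cidec at 12.7 ± 6.70 in knockout and 4.58 ± 2.38 in vehicle libraries. Genes were ranked by the mean over all 6 libraries. Below these came Fasn, Lep, Retn, Cidea and, lowest, Plin1 at 2.63 ± 1.12 FPKM in knockout and 1.27 ± 0.563 in vehicle libraries. By the mean of a group the lower ranks changed. Fasn, at 4.22 FPKM in knockout libraries, lay below Lep, Retn and Cidea there. Of the knockout libraries, only replicate 2 had Lep, at 10.7 FPKM, and Cidea, at 8.47, above Fasn, at 4.39. In vehicle libraries Cidea, at 1.97 ± 1.25 FPKM, lay above Lep (1.90 ± 1.13) and Retn (1.83 ± 0.772), by less than these SDs. The ranges of all neighbours in this order overlapped. Thrsp lay above Adipoq in 6 of 6 libraries, whereas Lep lay above Retn in 3 of 6 and Retn above Cidea in 2 of 6, so the order of these last is not set beyond their spread.

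**Figure D3:**
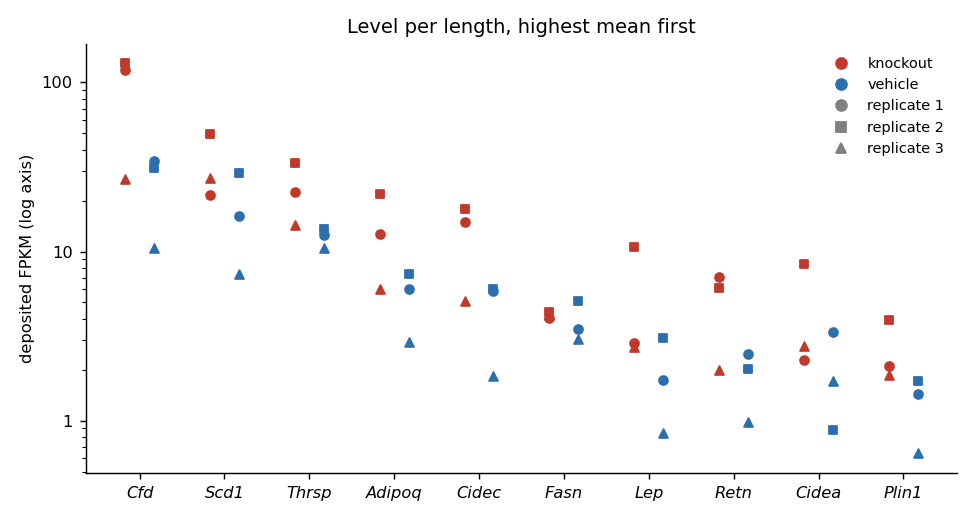
Deposited FPKM of each gene in every library on a log axis, genes ordered by their mean over the 6 libraries, knockout points left and vehicle points right of each position. Cfd is highest and Plin1 lowest by mean, and the ranges of neighbouring genes overlap.

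How far the genes moved together was read from the log2 CPM of each library relative to the gene's own mean over 6 libraries. Vehicle replicate 3 was lowest in 9 genes, from -0.34 for Fasn to -1.89 for Cfd. Knockout replicate 2 was highest in 6 genes, knockout replicate 1 in 3 (Cfd, Retn and Cidec) and vehicle replicate 2 in 1 (Fasn). Knockout replicate 3 lay below 0 in 7 genes, at -0.70 for Cfd and 0.25 for Scd1. The root mean square distance between 2 profiles, in log2 units over 6 libraries, was 0.23 between Cfd and Cidec, 0.25 between Plin1 and Scd1 and 0.27 between Adipoq and Cidec. It was 0.66 between Fasn and Scd1, 0.99 between Cidec and Cidea and 1.16 between Cfd and Fasn.

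**Figure D4:**
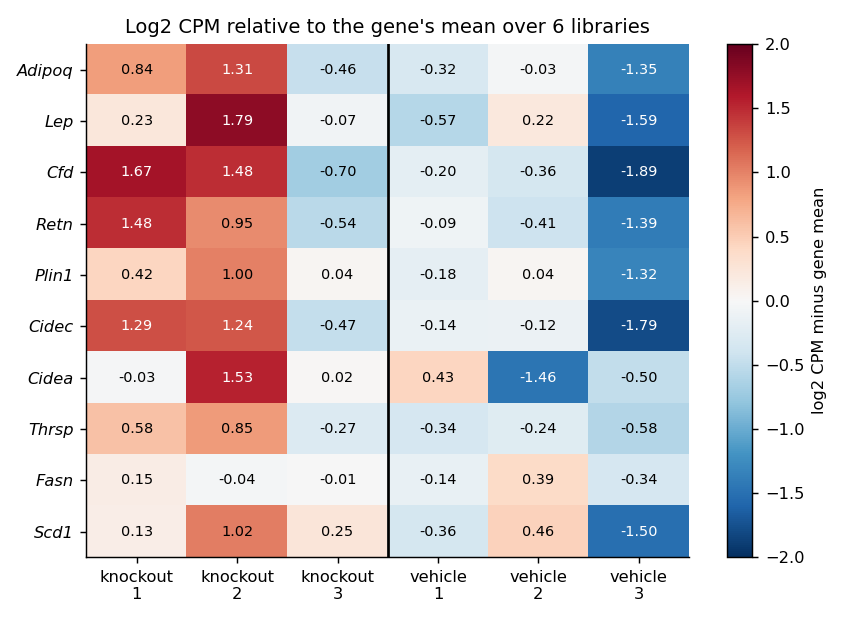
Log2 CPM of each gene in each library minus the gene's mean over 6 libraries, knockout columns left of the line and vehicle columns right of it. Knockout replicates 1 and 2 are above 0 in most rows and vehicle replicate 3 is below 0 in all, while the rows of Cidea and Fasn differ from the others.

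A ratio within a library does not depend on scaling. Adipoq itself spanned 6.39-fold over the 6 libraries in CPM, but the FPKM ratio of Cidec to Adipoq spanned only 1.86-fold, from 0.820 to 1.18 in knockout and from 0.633 to 0.981 in vehicle libraries. The ratio of Plin1 to Adipoq spanned 1.88-fold, that of Retn 2.04-fold, that of Lep 2.14-fold and that of Thrsp 2.37-fold. The ratio of Fasn to Adipoq spanned 5.19-fold, averaging 0.409 ± 0.263 over knockout libraries and 0.773 ± 0.241 over vehicle libraries (SD over 3 each). That of Cidea spanned 5.01-fold.

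The genes most like 3 of the members were ranked by the same distance among 11409 named genes of at least 1 CPM. Nearest to Adipoq, whose own root mean square deviation was 0.87, were the interferon-induced Ifi27l2a at 0.22, the protein kinase A regulatory subunit gene Prkar2b at 0.25, the haptoglobin gene Hp at 0.27, Cidec at 0.27 and the melanocortin receptor accessory gene Mrap at 0.28. Nearest to Scd1, with a deviation of 0.79, were Syde2 at 0.22, Plin1 at 0.25, the complement gene C4b at 0.25, the amino acid transporter gene Slc36a2 at 0.25 and the ferroxidase gene Heph at 0.27. Fasn varied by only 0.23, and its nearest genes, Rtel1, Uty, Mospd3, Plekhm1 and Rsbn1l, lay within 0.062 to 0.083. The other members were compared in the same way after their values were seen. Among them, Slc36a2 was nearest to Plin1 at 0.06 and Mrap nearest to Cidec at 0.12. The genes nearest to Cidea were Barx2 at 0.12, the myoglobin gene Mb at 0.16, Trappc6a at 0.17, the heart-type lactate dehydrogenase gene Ldhb at 0.19 and Fxyd6 at 0.19. Mb had 5435, 14217 and 6773 CPM in knockout libraries and 6929, 2109 and 3371 CPM in vehicle libraries, and the 6 libraries stood in the same order for Mb as for Cidea.

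Most other fat cell markers were also estimated higher, but the order of libraries differed by gene. Of 19 tested white adipocyte markers that are not among the 10 genes, 17 were estimated higher in knockout muscle (median log2 difference 0.80). Of these 19 markers 0 passed in edgeR, and 7 were at an unadjusted p below 0.05, beside 7.44% of all genes tested. Without knockout replicate 2 the median was 0.43, and without vehicle replicate 3 it was 0.53. In 5 of the 19 markers all knockout lay above all vehicle libraries, beside 5.83% of all genes tested. Npr3, a natriuretic peptide clearance receptor, had 14.4, 53.3 and 26.7 CPM in knockout libraries and 12.3, 6.71 and 4.70 CPM in vehicle libraries, without overlap. The groups were also apart for the adipogenic factor Cebpa, at 7.74, 11.5 and 6.22 CPM in knockout and 4.74, 3.34 and 3.42 CPM in vehicle libraries, and for adipogenin, Adig, at 8.40, 16.7 and 4.33 CPM in knockout and 4.30, 2.55 and 2.11 CPM in vehicle libraries. Their log2 fold changes were 2.00 for Npr3, 1.14 for Cebpa and 1.72 for Adig, with edgeR adjusted p values of 0.553, 0.526 and 0.574. DESeq2 called all 3 (adjusted p = 0.00307, 0.0388 and 0.0287), so 3 of the 19 markers, beside 0.699% of all genes tested. Of the 20 markers found 0 were at 0 in all libraries, and their summed level was 6001, 7254 and 6403 CPM in knockout and 5313, 4718 and 5208 CPM in vehicle libraries. Muscle fibres also express Lpl, Car3, Gpd1 and Plin4, which made up 88.3% to 93.8% of that sum in knockout and 92.4% to 93.9% in vehicle libraries. The other 16 summed to 505, 847 and 394 CPM in knockout libraries and 405, 339.96 and 317 CPM in vehicle libraries, and there knockout replicate 3 lay below vehicle replicate 1, as it did in the mean profile of the list. Fabp4 alone made up the larger part of this sum in every library. It had 314, 587 and 224 CPM in knockout and 274, 197 and 208 CPM in vehicle libraries, so the sum mostly followed 1 gene. Which cells the Fabp4 reads came from was not tested, so this sum is not a measure of fat cell RNA alone.

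Thermogenic fat markers were set beside Cidea. Ucp1, the uncoupling protein that defines brown fat, had 0 reads in all knockout libraries and 3, 1 and 2 reads in vehicle libraries, at or under the floor of 3 reads, and Elovl3 had 0, 0 and 4 reads in knockout and 2, 0 and 0 in vehicle libraries. Ucp1, Elovl3 and Adrb3 did not pass the low-count filter. Of the 7 tested, 6 had a higher estimate, with a median of 0.35 and 0 called in edgeR or at an unadjusted p below 0.05. Which cells the reads of these 7 came from was not tested. Without knockout replicate 2 the median was 0.04, with 5 of 8 higher. Cox7a1 was at 0.47, Prdm16 at 0.41 and Pparg at 0.35, and Cox7a1 is also a muscle gene.

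Receptors and other secreted products had medians nearer to 0 than the 10 genes. Of the 4 adipokine receptors, 2 had higher and 2 lower estimates, and 0 were called or at an unadjusted p below 0.05. The adiponectin receptor Adipor1 had 215, 166 and 210 CPM in knockout libraries and 233, 260 and 300.1 CPM in vehicle libraries, all knockout below all vehicle, with a log2 fold change of -0.42 (SE 0.19; edgeR adjusted p = 0.674). Adipor2 was at -0.12 and the adiponectin-binding cadherin Cdh13 at 0.20. Of 12 other adipokines tested, 9 had a higher estimate (median 0.30, and 0.01 without knockout replicate 2) and 0 were called. At an unadjusted p below 0.05 was 1 of the 12, Nrg4, at 1.43, beside 7.44% of all genes tested. Retnla, a resistin-like gene of macrophages and fat, was at 0.59 and C1qtnf9, an adiponectin paralog, at 0.29.

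Other droplet proteins and lipases divided by gene. Of 15 tested, 12 had a higher estimate (median 0.29, and 0.16 without knockout replicate 2), and 0 were called in edgeR. At an unadjusted p below 0.05 were 5 of the 15, beside 7.44% of all genes tested. Plin3, a perilipin of many tissues, had 51.0, 75.9 and 45.9 CPM in knockout libraries and 40.0, 21.6 and 24.6 CPM in vehicle libraries, and the hormone-sensitive lipase gene Lipe had 24.1, 33.1 and 23.6 CPM in knockout libraries and 20.3, 16.5 and 9.60 CPM in vehicle libraries. Neither gene overlapped between groups, and the log2 fold changes were 1.00 (SE 0.27) for Plin3 and 0.80 (SE 0.27) for Lipe. All knockout lay above all vehicle libraries in 5 of these 15 genes, beside 5.83% of all genes tested, and below in 1. Lipe is also among the white adipocyte markers. Hilpda, a hypoxia-induced inhibitor of adipose triglyceride lipase, lay the other way, with 4.13, 6.40 and 8.31 CPM in knockout libraries and 10.7, 12.7 and 28.7 CPM in vehicle libraries. Its log2 fold change was -1.47 (SE 0.40, edgeR adjusted p = 0.565, DESeq2 adjusted p = 0.0287). DESeq2 called only this 1 of the 15, beside 0.699% of all genes tested.

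The lipogenic pathway as a whole had a median nearer to 0 than the 10 genes. Of 17 tested genes of fatty acid synthesis and desaturation, Thrsp, Fasn and Scd1 included, 13 had a higher estimate (median 0.16) and 0 were called. At an unadjusted p below 0.05 were 2 of the 17, beside 7.44% of all genes tested. The median was 0.35 without vehicle replicate 1, 0.09 with knockout replicate 2 left out, 0.10 with knockout replicate 3 left out and 0.05 with vehicle replicate 3 left out. The 2 were Thrsp and, in the other direction, the malic enzyme gene Me1, which supplies NADPH. Me1 had 132, 75.7 and 141 CPM in knockout libraries and 147, 225 and 249 CPM in vehicle libraries, without overlap, a log2 fold change of -0.83 (SE 0.28; edgeR adjusted p = 0.628). Acss2, which makes acetyl-CoA from acetate, was at 0.58. In triglyceride assembly 8 of 13 had a higher estimate and 0 were called. The median of the 13 was 0.30, or 0.19 when knockout replicate 2 and 0.12 when vehicle replicate 3 was left out. At an unadjusted p below 0.05 were 3 of the 13, beside 7.44% of all genes tested. These were Dgat2, the last enzyme of the pathway, at 1.46, Agpat2 at 0.99 and Agpat9, also called Gpat3, at -0.79. Dgat2 had 87.1, 285 and 142 CPM in knockout libraries and 104, 34.4 and 48.3 CPM in vehicle libraries.

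Regulators of these genes were split evenly, with 9 of 18 higher, a median of 0.07 and 0 called in edgeR. At an unadjusted p below 0.05 were 3 of the 18, beside 7.44% of all genes tested. All 3 were higher: Cebpa, Cebpd at 0.75 and Klf15 at 0.45. For Cebpd and Klf15, as for Cebpa, all knockout libraries lay above all vehicle libraries. That held for 5 of the 18 regulators, beside 5.83% of all genes tested, and 1 regulator had all knockout below all vehicle libraries. The sterol and lipogenic factor Srebf1 was at -0.39, the carbohydrate response factor Mlxipl at 0.31 and the fat cell receptor Pparg at 0.35. Srebf1 and Mlxipl were named after their values were seen.

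Other cell types differed between libraries beside these genes. Slow-twitch fibre markers summed to 6201, 32826 and 10352 CPM in knockout libraries and 10164, 1483 and 1233 CPM in vehicle libraries, and all 10 had a higher estimate (median 1.90), among them Casq2 at 1.79, Myoz2 at 1.79 and Myl2 at 2.17. Of these 10 markers 2 were at an unadjusted p below 0.05, beside 7.44% of all genes tested. The slow-twitch median was 0.92 when knockout replicate 2 and 3.56 when vehicle replicate 1 was left out. Macrophage markers summed to 50.7, 157 and 150.1 CPM in knockout and 72.3, 54.9 and 39.5 CPM in vehicle libraries, with all 10 higher (median 1.25), among them C1qa at 1.23, C1qc at 1.59 and Csf1r at 1.29. Of 10 macrophage markers 8 were at an unadjusted p below 0.05, beside 7.44% of all genes tested and 7 of the 10 genes described here. The macrophage count was 0 without knockout replicate 2, knockout replicate 3 or vehicle replicate 3, and 1 without vehicle replicate 2. Fibro-adipogenic progenitor markers, of the cells that can turn into fat cells in muscle, summed to 478, 1122 and 849 CPM in knockout and 620, 653 and 550.1 CPM in vehicle libraries. All 8 of them had a higher estimate (median 0.57, and 0.34 without knockout replicate 2), with Lum at 0.95, Pi16 at 1.26 and Col1a1 at 1.19. Of the 8, 2 were at an unadjusted p below 0.05, beside 7.44% of all genes tested. In none of these lists was a gene called by edgeR or a defining marker at 0 in all libraries. Knockout replicate 1, the highest library for Cfd, Retn and Cidec, had lower sums than vehicle replicate 1 for all 3 of these lists. Against the other vehicle libraries the lists differed. Its slow-twitch sum was above vehicle replicates 2 and 3, and its macrophage sum was above vehicle replicate 3 only. Its fibro-adipogenic progenitor sum was below all vehicle libraries. Measured to the mean profile of each list, Cidea lay 0.86 from slow-twitch, 0.73 from macrophage, 0.68 from fibro-adipogenic progenitor and 0.67 from white adipocyte markers. From the thermogenic fat markers Cidea lay 0.73. The part of these cell types in the values of the 10 genes was not tested.

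**Figure D5:**
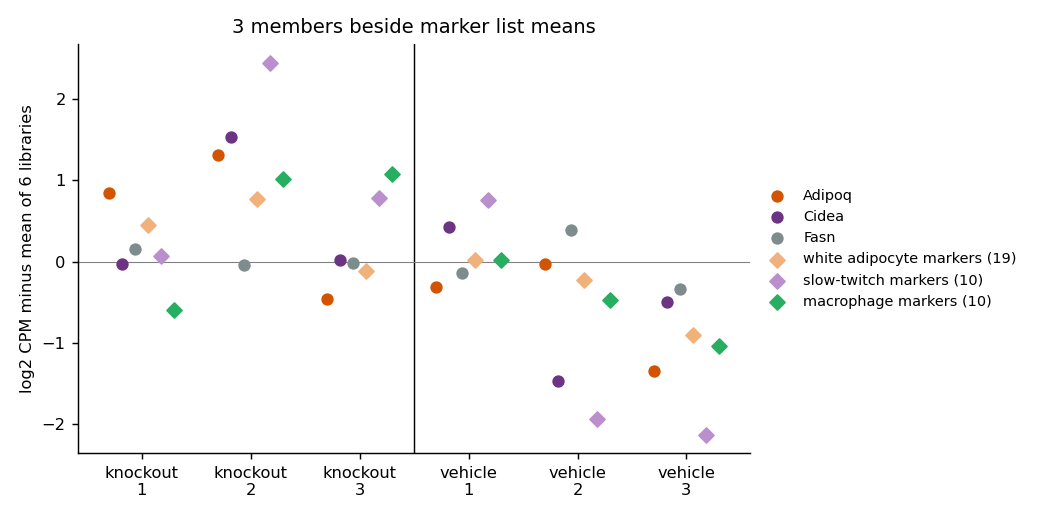
Log2 CPM relative to the mean of 6 libraries for Adipoq, Cidea and Fasn (circles) and for the mean of 3 marker lists (diamonds, number of genes tested in parentheses), knockout libraries left of the line and vehicle libraries right of it. Knockout replicate 1 is above 0 for Adipoq and the white adipocyte markers and below 0 for the macrophage markers. Vehicle replicate 2 is low for Cidea and the slow-twitch markers, but the slow-twitch markers are lowest in vehicle replicate 3.

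Further marker lists held 0 called genes in edgeR. Of 8 fast and general muscle markers 2 had a higher estimate (median -0.33), with Mb at 1.09, Pvalb at -0.76 and Tnnt3 at -0.47. Without knockout replicate 2 the median of these 8 was -0.07, with 4 higher. Of 8 endothelial markers 5 were higher in estimate (median 0.16), with Cldn5 at -0.91, Kdr at 0.37 and Tie1 at 0.21. Without vehicle replicate 3 the endothelial median was -0.01, with 3 of 8 higher. DESeq2 called 1 of the 8, Cldn5 (adjusted p = 0.0143), beside 0.699% of all genes tested. Of 5 smooth muscle markers 4 were lower (median -0.61), with Cnn1 at -1.60, Acta2 at -0.76 and Tagln at -0.61. In these 3 all knockout lay below all vehicle libraries, as in 1009 of the 15583 genes tested. Of the 5 markers 3 were at an unadjusted p below 0.05, beside 7.44% of all genes tested. That count was also 3 in each fit that left out 1 library. DESeq2 called 1 of the 5, Cnn1 (adjusted p = 0.0297), beside 0.699% of all genes tested. Red blood cell markers summed to between 531 and 3184 CPM in knockout and between 604 and 3605 CPM in vehicle libraries (median -0.24), with Alas2 at -0.64, Hba-a1 at -0.25 and Hba-a2 at -0.24, the globin pair being near-identical copies. Their direction rested on single libraries: the median was 1.10 with all 5 higher without vehicle replicate 2, 0.16 without knockout replicate 3, and -0.89 with all 5 lower without knockout replicate 2.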

How the data were processed

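RNA-seq of gastrocnemius gave 6 libraries, grouped by the phenotype label into 3 knockout and 3 vehicle. Replicate numbers only name samples. The deposited table gives a raw read count per gene and library. The submitters' processing notes name STAR 2.6.1c, Subread 1.5.1, featureCounts, bcl2fastq and mm10. For the annotation release and strand setting the sources used here give nothing. The deposited FPKM columns, so named per the file headers, were found to equal the count over gene length plus 1 base and over the column total. Value columns of no sample numbered 0. No library pair agreed within sampling noise.

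Counts were tested in R 4.3.3 with edgeR 4.0.16 (filterByExpr, minimum count 10 and total 15, TMM, robust quasi-likelihood, Benjamini-Hochberg over all genes, two-sided, threshold 0.05). SE came from the F statistic. CPM use TMM-scaled totals, and profiles use log2 CPM with prior count 2. DESeq2 1.42.0 and limma 3.58.1 were alternatives, with other scalings, filters, FPKM with pseudocounts 0.1 and 1, and each library left out. Scripts were tested on simulated data.

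The 16 lists hold 165 genes, and 165 matched the table, 5 through RefSeq names. Some lists share genes, among them Lipe, Plin4, Cebpa, Pparg, Agpat2 and Gpd1, so counts from different lists are not of separate genes. Results of 1 list are not reported here. In each other list the 3 genes of smallest p are named, since none passed, and the 5 nearest profiles for Adipoq, Fasn and Scd1. Other genes named were chosen after their values were seen. Members and lists were chosen with earlier results of these data known.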

Additional observations from a re-analysis of the deposited data

How the results depend on the processing

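The 10 genes kept their direction in 15 alternatives each, except Fasn, whose log2 fold change was -0.03 without knockout replicate 1, -0.04 without vehicle replicate 1 and -0.11 without vehicle replicate 3 (up to 0.27 without vehicle replicate 2). None passed the adjusted threshold in any alternative, where the smallest adjusted p was 0.196, for Retn and Cidec in DESeq2. The median log2 fold change of the 10 ran from 0.62 (without knockout replicate 2) to 1.43 (without knockout replicate 3) over fits that left out a library and from 0.99 to 1.25 elsewhere. Of all genes, 0 were called in edgeR, 4 with DESeq2 size factors in edgeR, 109 with DESeq2, 29 with no low-count filter and 0 to 24 when a library was left out; the cause was not tested. The count of the 10 genes at an unadjusted p below 0.05, chosen after seeing the data, was 7, with 3 when no low-count filter was used and 1 to 8 when a library was left out. With library totals alone as scaling, the median of all genes was 0.12 and 65.3% of all genes had a higher estimate, against 0.02 and 52.9% with TMM. No paired analysis was possible because the labels give the groups no shared replicate numbers. The SD between knockout libraries was 7.46% to 75.0% of the mean, and the 10 genes had 38 to 7336 reads per library; the share of counting error in the intervals was not tested.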
